A study of Sus scrofa with 6 samples.

Results

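RNA sequencing of peripheral blood mononuclear cells (PBMCs, the lymphocytes and monocytes separated from blood) was examined for genes of glucose uptake and glycolysis. Of 10 listed genes, 8 were rows of the deposited table by their symbol, and all 8 passed the filter on low values, among 11564 genes in the table and 10735 tested. These were HK1, HK2, HK3, PFKL, PGK1, ENO1, LDHA and HIF1A. The glucose transporters SLC2A1 and SLC2A3 had no row under their symbols and were not analysed here. The samples were 6 Yorkshire pig PBMC libraries at 6 months of age, 3 labelled WT and 3 labelled Leptin-overexpressing, with no treatment named in the labels. According to the study's methods, the leptin pigs were made by nuclear transfer from transfected, drug-selected fetal fibroblasts of the same breed. They carried a pig leptin reading frame joined through an IRES to a green fluorescent protein gene. The study's text names the pig leptin promoter as the driver, and its vector drawing shows a CMV promoter. Whether the 3 leptin pigs came from 1 fibroblast clone is not given in the sources used here. Where nothing says that libraries of a label came from separate litters or days, the p-values measure only the spread between these libraries.

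Glycolysis splits glucose into pyruvate in the cytosol and yields ATP without oxygen. Hexokinase traps glucose as glucose 6-phosphate, phosphofructokinase commits the sugar to the pathway, phosphoglycerate kinase makes the first ATP of the payoff phase, enolase makes phosphoenolpyruvate and lactate dehydrogenase regenerates NAD by turning pyruvate into lactate. HIF1A is the oxygen-regulated subunit of a transcription factor that raises many of these genes under low oxygen. It is controlled mainly by destruction of the protein, which RNA levels do not measure. In blood, activated lymphocytes and myeloid cells raise glycolysis, and leptin is known to affect glucose handling by T cells.

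Expression was given as FPKM, which corrects fragment number for transcript length and for the size of the library, and the depth of each library is unknown from these values. LEP RNA (ENSSSCG00000016588, chromosome 18 from 21201785 to 21204671) was at 50.0 FPKM in WT replicate 1, was listed at 0 in WT replicate 2 and was at 0.118 FPKM in WT replicate 3. LEP was listed at 0 in leptin replicate 1, and was at 18.3 and 39.3 FPKM in leptin replicates 2 and 3. Both libraries numbered 1 thus go against their labels, and every direction below is that of the libraries as labelled. PBMC markers were present in all 6 libraries, with 7 of 7 T cell symbols, 5 of 6 B cell symbols and 7 of 7 monocyte symbols in the table, and no row of these 3 lists was at 0 in any library. WT replicate 1 had the highest sum over the neutrophil marker list, carried mainly by S100A8, S100A9 and S100A12 (699, 1031 and 1702 FPKM in that library). The summed FPKM of 6 neutrophil marker rows was 3519 in that library, 695 and 413 in the other WT libraries, and 412, 1268 and 639 in leptin replicates 1, 2 and 3, although 1 of the 6, MMP9, was highest in leptin replicate 2 (225 FPKM, against 59.7 FPKM in WT replicate 1) and another, ELANE, in leptin replicate 1. Bulk RNA cannot separate fewer cells of a type from less RNA per cell.

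The 8 genes did not differ between the labels beyond the spread between libraries. In limma on log2(FPKM + 1), 0 of 8 had an adjusted p under 0.05 (0.00932% of all genes tested did), and 0 of 8 had an unadjusted p under 0.05 (3.18% of all genes). For 0 of 8 genes were the labels free of overlap, meaning all 3 values of one label above all 3 of the other, against 7.63% of all genes. By sign, 5 were higher and 3 lower in the leptin-labelled libraries, with a median log2 fold change of 0.028 beside 0.059 over all genes tested. Leaving out both libraries numbered 1, a fit of 2 libraries against 2, gave 0 of 8 at either threshold, where 2.32% of all genes had an unadjusted p under 0.05 and 0 an adjusted one. The unadjusted p ran from 0.367 for PFKL to 0.897 for HK3, and the smallest adjusted p was 0.993 (limma, two-sided, Benjamini-Hochberg over all genes). Exact permutation tests gave two-sided p from 0.4 to 1, where 3 libraries against 3 can reach 0.1 at the lowest. On this scale the widest 95% limits over the 8 genes were a log2 fold change of -0.64 for LDHA and 0.69 for HK2. The HK2 limit depends on the pseudocount, since with 0.1 in place of 1 the HK2 estimate went from 0.16 to 0.24 and its upper limit to 1.04.

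**Figure D1:**
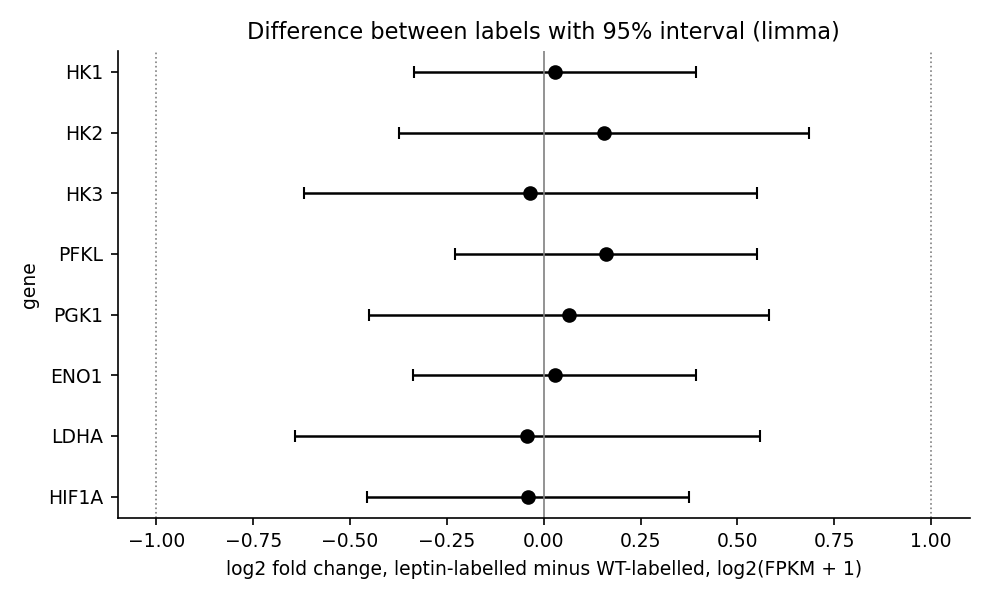
Log2 fold change of each of the 8 genes (points, leptin-labelled minus WT-labelled, log2(FPKM + 1) scale) with 95% intervals from limma, n = 3 per label; the solid line is at 0 and the dotted lines mark a 2-fold change. Every interval includes 0 and lies inside the 2-fold lines on this scale, while with a pseudocount of 0.1 the upper limit of HK2 is 1.04.

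The table places HK1 (ENSSSCG00000010253) on chromosome 14 from 78486910 to 78521299, HK2 (ENSSSCG00000008261) on chromosome 3 from 71331771 to 71407448 and HK3 (ENSSSCG00000014048) on chromosome 2 from 82651077 to 82669061. PFKL (ENSSSCG00000028197) is on chromosome 13 from 217047198 to 217070998 and ENO1 (ENSSSCG00000022343) on chromosome 6 from 63739622 to 63748851. LDHA (ENSSSCG00000013366) is on chromosome 2 from 43898276 to 43909456 and HIF1A (ENSSSCG00000005096) on chromosome 1 from 212130957 to 212179888. PGK1 (ENSSSCG00000012440) lies on chromosome X from 71339753 to 71352751 and overlaps the row of TAF9B by 2924 bp. TAF9B was at 6.42 to 8.43 FPKM, far below PGK1. These coordinates are as the table gives them, with no build named.

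In level, HK3 stood above the other 7 genes in each library, at 622 to 1079.6 FPKM. Whether the HK3 gene model also collects reads of another transcript was not examined, and its level, rank and hexokinase share rest on that model. Next came ENO1 (298 to 373 FPKM), PGK1 (222 to 376 FPKM) and LDHA (196 to 357 FPKM), whose ranges overlapped so that their order was not fixed. HK1 (39.2 to 51.5 FPKM) and HIF1A (31.3 to 45.7 FPKM) overlapped likewise, and both lay above PFKL (15.6 to 23.0 FPKM) in every library. HK2 was the lowest, at 1.02 to 2.61 FPKM. By FPKM, HK3 ranked between 56 and 122 among the 11564 genes of a library, while HK2 ranked between 8626 and 10404.

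**Figure D2:**
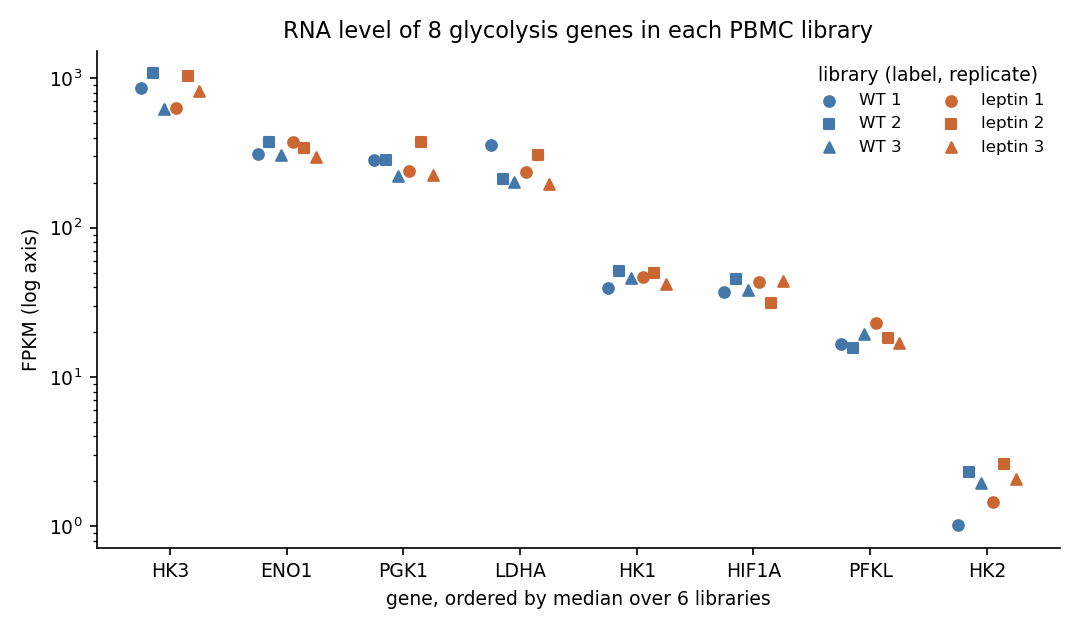
FPKM (log axis) of the 8 genes in each of the 6 libraries, ordered by their median; colour gives the label and marker shape the replicate number. HK3 is at 622 to 1079.6 FPKM and HK2 at 1.02 to 2.61 FPKM, and the 2 colours are mixed within every gene.

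Among the hexokinases, HK3 is the isoform associated with myeloid cells, HK1 the widely expressed housekeeping isoform and HK2 the inducible one that insulin, hypoxia and lymphocyte activation raise. HK3 was at 862, 1079.6 and 622 FPKM in WT replicates 1, 2 and 3 and at 633, 1042 and 817 FPKM in leptin replicates 1, 2 and 3. WT replicate 2 and leptin replicate 2 were the high libraries, WT replicate 3 and leptin replicate 1 the low ones, and the labels overlapped. The WT-labelled mean was 855 ± 229 FPKM (SD, n = 3) and the leptin-labelled mean 831 ± 205 FPKM (SD, n = 3). On the log2 scale this was -0.034 (standard error, SE, 0.25, 95% interval -0.62 to 0.55, adjusted p = 0.997, limma). Its sign turned, to 0.15 in both cases, without WT replicate 2 and without leptin replicate 1.

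HK1 was at 39.2, 51.5 and 45.7 FPKM in the WT-labelled libraries and at 46.7, 49.8 and 42.3 FPKM in the leptin-labelled ones, in replicate order. Its lowest and highest values were both in WT-labelled libraries. The log2 fold change was 0.028 (SE 0.16, 95% interval -0.34 to 0.39, adjusted p = 0.997, limma), and median-of-ratios scaling turned its sign, to -0.036. HK2 was at 1.02, 2.30 and 1.96 FPKM with the WT label and at 1.45, 2.61 and 2.09 FPKM with the leptin label. The value of WT replicate 1 was the lowest, and the labels overlapped. Its log2 fold change of 0.16 (SE 0.23, 95% interval -0.37 to 0.69, adjusted p = 0.993, limma) became -0.055 without WT replicate 1.

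Because FPKM is per length, the isoforms of a family can be set against each other. HK3 gave 95.5%, 95.3% and 92.9% of the summed hexokinase FPKM in WT replicates 1, 2 and 3, and 92.9%, 95.2% and 94.8% in leptin replicates 1, 2 and 3. WT replicate 3 and leptin replicate 1 were again the low libraries. The mean share was 94.6% ± 1.46 (SD, n = 3) with the WT label and 94.3% ± 1.22 (SD, n = 3) with the leptin label, a difference of -0.22 percentage points (exact permutation test, two-sided p = 0.7). The ratio of HK3 to HK1 ran from 13.6 to 22.0, and that of HK1 to HK2 from 19.1 to 38.5.

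PFKL encodes the liver-type subunit of phosphofructokinase. It was at 16.6, 15.6 and 19.4 FPKM in WT replicates 1, 2 and 3 and at 23.0, 18.4 and 16.9 FPKM in leptin replicates 1, 2 and 3. Leptin replicate 1 was the high library and the labels overlapped. In the main fit PFKL had the largest log2 fold change of the 8 genes, 0.162 (SE 0.17, 95% interval -0.23 to 0.55, adjusted p = 0.993, limma), barely above HK2 at 0.156. HK2 was the larger of these in some alternatives, among them a pseudocount of 0.1 (0.243 against 0.169) and median-of-ratios scaling (0.123 against 0.099). The sign of PFKL was the 1 that none of the 9 alternatives able to move an estimate turned. The size of its estimate rested on single libraries, at 0.039 without leptin replicate 1, 0.25 without leptin replicate 3 and 0.018 without both libraries numbered 1. The platelet-type subunit PFKP gave 66.0% to 72.8% of the summed phosphofructokinase FPKM and PFKL 25.2% to 31.1%. The PFKL share was 26.5% ± 0.854 (SD, n = 3) with the WT label and 28.5% ± 3.02 (SD, n = 3) with the leptin label (exact permutation test, two-sided p = 0.4).

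PGK1, phosphoglycerate kinase, was at 283, 282 and 222 FPKM in WT replicates 1, 2 and 3 and at 239.9, 376 and 225 FPKM in leptin replicates 1, 2 and 3. Leptin replicate 2 was the highest library, and the other 2 leptin-labelled values lay among the WT-labelled ones. The log2 fold change was 0.065 (SE 0.22, 95% interval -0.45 to 0.58, adjusted p = 0.993, limma), and median-of-ratios scaling brought it to -9.51e-04. ENO1, the enolase of most tissues, was at 311, 373 and 307 FPKM with the WT label and at 372, 341 and 298 FPKM with the leptin label. High and low libraries occurred under both labels. ENO1 had a log2 fold change of 0.028 (SE 0.16, 95% interval -0.34 to 0.39, adjusted p = 0.997, limma), which scaling turned to -0.038, and it gave 99.2% to 99.5% of the summed FPKM of ENO1 and ENO3.

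LDHA, the lactate dehydrogenase subunit that favours lactate production, was at 357, 213 and 201 FPKM in WT replicates 1, 2 and 3 and at 235, 305 and 196 FPKM in leptin replicates 1, 2 and 3. WT replicate 1 and leptin replicate 2 were the high libraries, 1 under each label. On the log2(FPKM + 1) scale LDHA had a standard deviation of 0.35 over the 6 libraries, above 82.6% of all genes tested. In FPKM its highest library was 1.82 times its lowest, and HK2, whose low values the pseudocount shrinks on the log scale, ranged more widely, by 2.56 times. Its log2 fold change was -0.042 (SE 0.26, 95% interval -0.64 to 0.56, adjusted p = 0.997, limma) and became 0.22 without WT replicate 1. LDHA made up 68.2% of the summed LDHA and LDHB FPKM in WT replicate 1, 59.9% in leptin replicate 2 and 49.7% to 52.3% in the other 4 libraries. The subunit LDHB, which favours pyruvate, was at 167 FPKM in WT replicate 1, its lowest library, and at 188 to 227 FPKM in the others. Its row spans only chromosome 2 from 12622306 to 12623588, and reads shared with another copy were not examined, so these shares are uncertain. The LDHA share was 56.7% ± 10.01 (SD, n = 3) with the WT label and 53.9% ± 5.15 (SD, n = 3) with the leptin label (exact permutation test, two-sided p = 0.7).

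**Figure D3:**
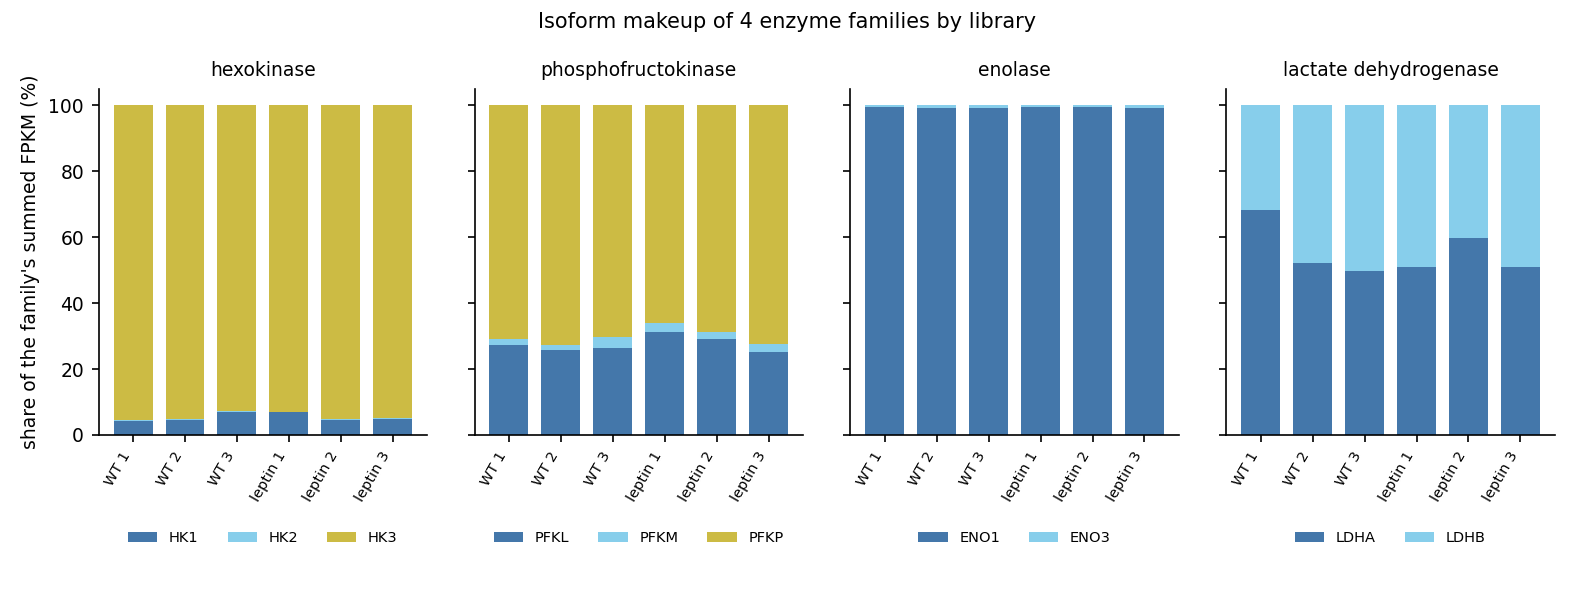
Share of each isoform (%) in the summed FPKM of its enzyme family, for hexokinase, phosphofructokinase, enolase and lactate dehydrogenase, 1 bar per library. HK3 is over 92% of the hexokinase bars in every library, and the LDHA share is highest in WT replicate 1 (68.2%) and leptin replicate 2 (59.9%).

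HIF1A was at 37.0, 45.7 and 38.4 FPKM in WT replicates 1, 2 and 3 and at 43.3, 31.3 and 44.0 FPKM in leptin replicates 1, 2 and 3. Leptin replicate 2 was its lowest library and WT replicate 2 its highest, and the labels overlapped. The log2 fold change was -0.040 (SE 0.18, 95% interval -0.46 to 0.38, adjusted p = 0.994, limma). Its sign turned without WT replicate 2 (0.049) and without leptin replicate 2 (0.11).

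**Figure D4:**
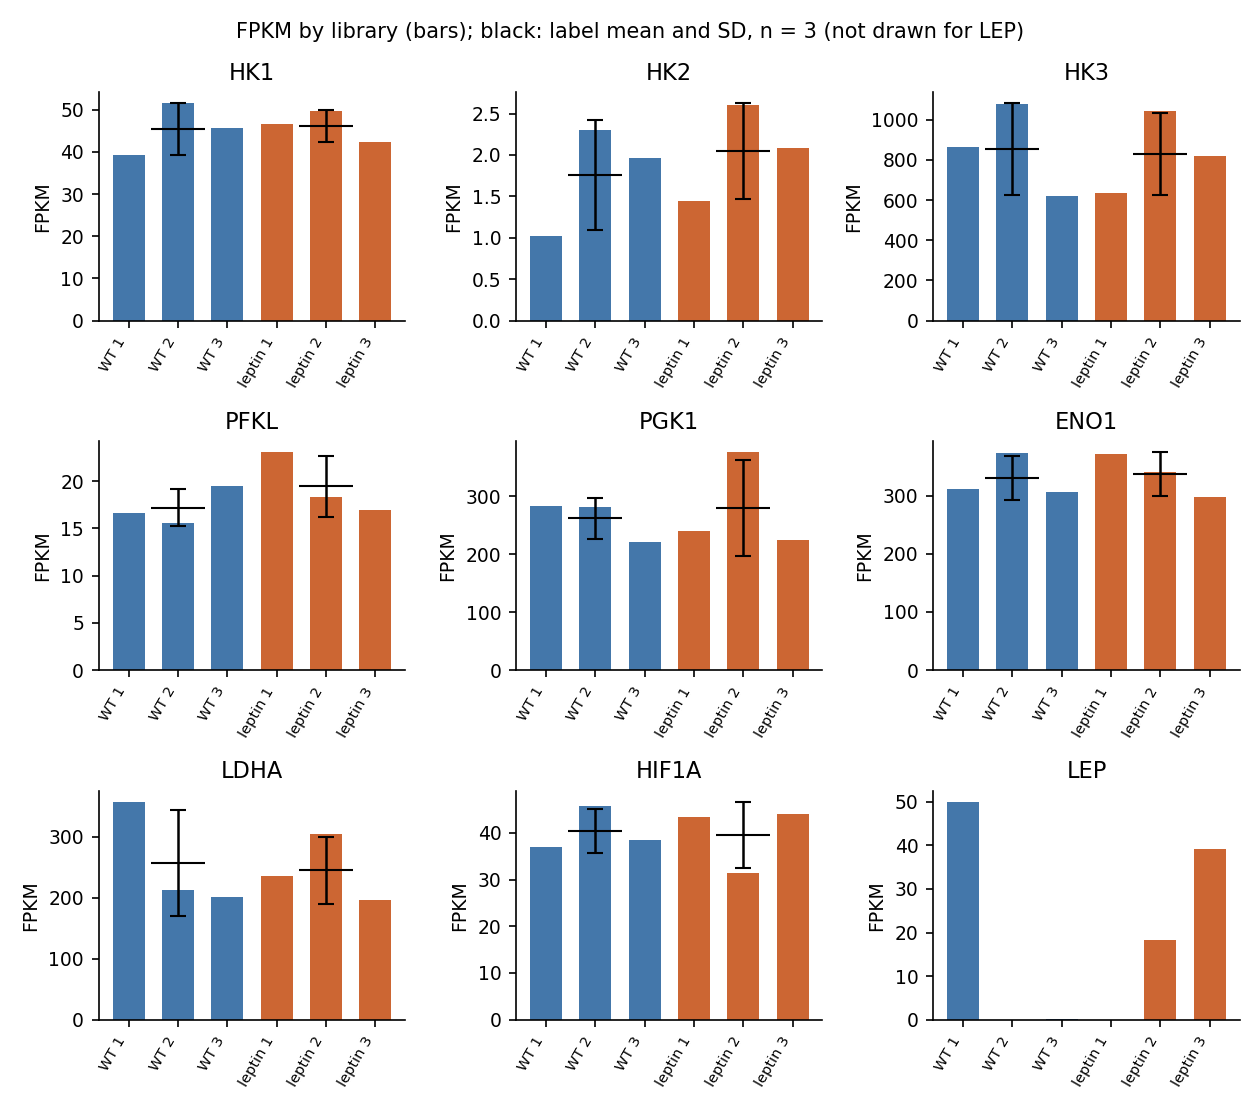
FPKM of each of the 8 genes and of LEP in the 6 libraries (bars, each axis from 0; blue WT-labelled, orange leptin-labelled), with the label mean and SD (n = 3) in black for the 8 genes. LEP is high in WT replicate 1 and in leptin replicates 2 and 3, and no gene has its 3 highest libraries in the same places.

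Set beside LEP RNA, the 8 genes had no shared order. LEP is a measured outcome and its values fall into separate clusters, so no correlation was computed and the libraries were not regrouped. The library with the most LEP RNA, WT replicate 1, had the highest LDHA and the lowest HK1 and HK2. Leptin replicate 3, second in LEP, had the lowest LDHA and ENO1. Leptin replicate 2, with 18.3 FPKM of LEP, had the highest PGK1 and HK2 and the lowest HIF1A. WT replicate 2, where LEP was listed at 0, had the highest HK1, HK3, ENO1 and HIF1A.

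The genes most alike to each of the 8 over the 6 libraries were taken by Pearson's r on log2(FPKM + 1) among 8527 other tested genes with a symbol, as a description of 6 points. HK3 was most like IFIT1 (r = 0.996), IFIT2 (r = 0.992) and IFIT3 (r = 0.990), RNA-binding antiviral proteins that interferon induces. IFIT1 was at 961, 1426 and 475 FPKM in WT replicates 1, 2 and 3 and at 537, 1289 and 794 FPKM in leptin replicates 1, 2 and 3. Its order of libraries was that of HK3, with a wider range. Monocyte markers were mixed beside HK3. Their summed FPKM, carried mainly by LYZ and CD14, was 484 in WT replicate 2, where HK3 was highest, and 921 and 933 in WT replicate 1 and leptin replicate 2. CD68 (ENSSSCG00000017956) was highest in the same libraries as HK3, at 46.2 FPKM in WT replicate 2, 45.04 in leptin replicate 2 and 40.6 in WT replicate 1, and was lowest, at 19.4 FPKM, in WT replicate 3. A second row named CD68 (ENSSSCG00000008769) was highest in leptin replicate 1 (7.49 FPKM), where HK3 was low. The part of these markers in the HK3 values was not tested. A list of 26 interferon-induced symbols was written after this was seen and holds IFIT1, IFIT2 and IFIT3 themselves, and 24 of its genes were tested. Of the 21 other than these IFIT genes, 8 had an r over 0.9 with HK3, where 1.03% of the 8527 genes did, and over the whole list r went down to -0.55. The list was prompted by these same libraries and its genes can vary together. The 8 are therefore not separate observations, and their number beside 1.03% is no test. The same 21 genes gave 2 for PGK1 and 0 for each of the other 6 genes. PFKL ran the other way, with a median r of -0.73 over the 24 genes (lowest -0.97), where its median over the 8527 genes was 0.35. Likeness over 6 libraries shows shared library differences only.

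LDHA was most like GNA15 (r = 0.986), PHACTR1 (r = 0.985) and TPPP3 (r = 0.982), and PGK1 was most like TMEM59, DPYD and SYS1 (r = 0.985 to 0.987). HK1 was most like OSBPL9 (r = 0.994), ICAM1, an adhesion molecule (r = 0.985), and IFI30, a lysosomal thiol reductase (r = 0.983). The nearest genes were ZP3, TNPO3 and MTFR1 for HK2, HAGH, BCLAF1 and PRICKLE3 for PFKL, MRPL1, PFN2 and SNX11 for ENO1, and BTRC, GTF2H3 and SCML1 for HIF1A. Between 33 and 134 genes had an r over 0.9 with each of the 8, so these names are a few of many.

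**Figure D5:**
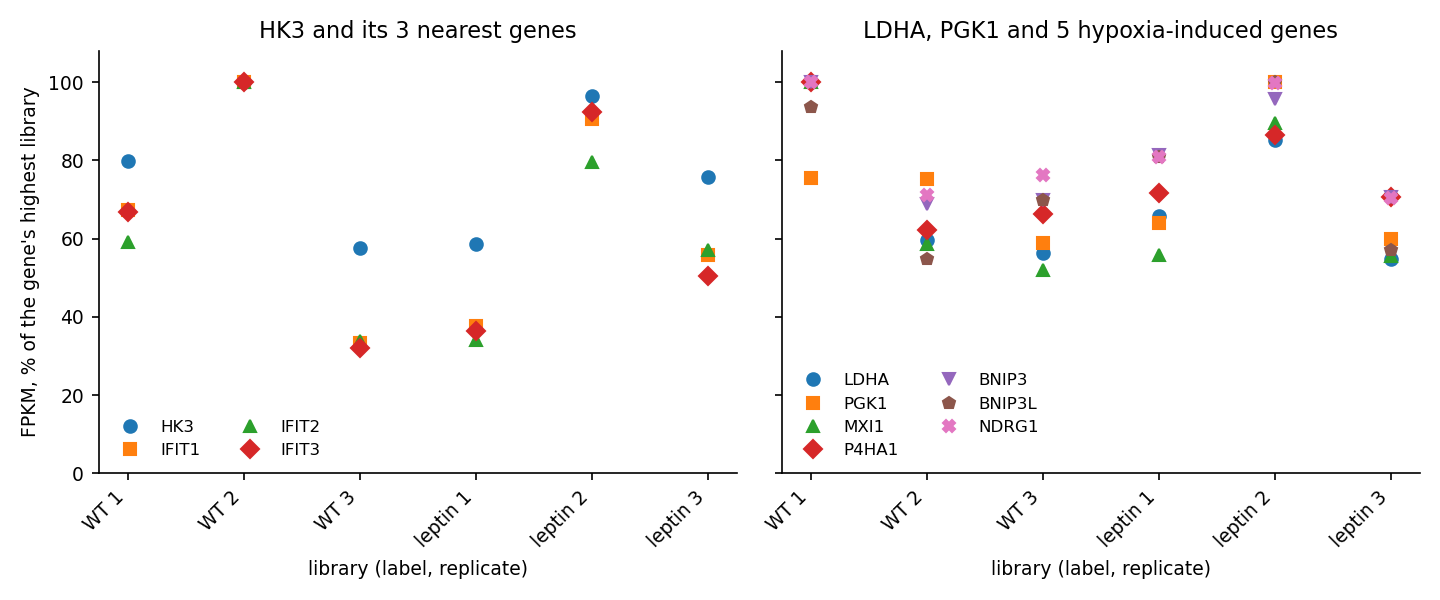
FPKM in each library as a percentage of the gene's highest library, for HK3 with IFIT1, IFIT2 and IFIT3 (left) and for LDHA and PGK1 with those 5 of 11 hypoxia-induced genes that were picked for sharing their 2 highest libraries (right). HK3 and the IFIT genes are highest in WT replicate 2 and lowest in WT replicate 3, and the choice of the genes on the right fixes their 2 highest libraries, WT replicate 1 and leptin replicate 2.

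Around the 8 genes, 59 tested genes of 7 lists (transporters, enzymes, regulators, lactate and pyruvate handling, pentose phosphate pathway, HIF proteins and hypoxia-induced genes) were read in the same fit. Of these, 0 had an adjusted p and 0 an unadjusted p under 0.05 in limma, 37 were higher and 22 lower in the leptin-labelled libraries, and their median log2 fold change was 0.028. The labels did not overlap for 6 of the 59 (10.2%), near the 7.63% of all genes tested, and 3.18% of all genes had an unadjusted p under 0.05.

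Of the hexose transporters, 3 were tested, 1 higher and 2 lower. SLC2A11 had a log2 fold change of -0.015 and SLC2A8 one of -0.068, both with overlapping labels. SLC2A6, a hexose carrier of the same family as SLC2A1, was at 7.30, 10.8 and 11.8 FPKM in WT replicates 1, 2 and 3 and at 11.9, 15.0 and 13.4 FPKM in leptin replicates 1, 2 and 3. Each leptin-labelled value was above each WT-labelled one, by a narrow gap between WT replicate 3 and leptin replicate 1. The log2 fold change was 0.42 (SE 0.20, adjusted p = 0.993, unadjusted p = 0.0680, limma; exact permutation test, two-sided p = 0.1). SLC2A13, a myo-inositol carrier, failed the filter and was named after its values were seen, at 7.87 FPKM in WT replicate 1 and 0 to 0.272 FPKM in the other 5 libraries.

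Of 20 tested glycolytic enzymes, HK1 to LDHA above included, 14 were higher, 6 lower and 0 called at either p. ALDOC, an aldolase, had the largest log2 fold change, 0.40 (SE 0.23, adjusted p = 0.993, limma), with overlapping labels. GAPDH, whose row had no symbol in the table and spans chromosome 5 from 66448693 to 66449511, was at 1574, 908 and 1432 FPKM in WT replicates 1, 2 and 3 and at 1431, 1865 and 1251 FPKM in leptin replicates 1, 2 and 3. The summed FPKM of the 20 enzymes was 4421, 3994 and 3911 with the WT label and 4116, 5101 and 3855 with the leptin label, so leptin replicate 2 was highest and leptin replicate 3 lowest. These sums were carried largely by the rows of GAPDH and HK3.

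Of 7 flux regulators tested, 3 were higher and 4 lower. PFKFB2, which makes the phosphofructokinase activator fructose 2,6-bisphosphate, had the largest difference, a log2 fold change of -0.50 (SE 0.29, adjusted p = 0.993, limma). PFKFB2 was at 8.95, 8.55 and 4.53 FPKM in WT replicates 1, 2 and 3 and at 4.37, 6.93 and 3.35 FPKM in leptin replicates 1, 2 and 3, and the labels overlapped. Of 12 genes of lactate export and mitochondrial pyruvate entry, 9 were higher and 3 lower. SLC16A3, the lactate exporter MCT4, had a log2 fold change of 0.31 (SE 0.23, adjusted p = 0.993, limma) and overlapping labels. PDHX, a structural part of pyruvate dehydrogenase, did not overlap, at 2.39 to 3.80 FPKM with the WT label and 3.84 to 3.95 FPKM with the leptin label. The pentose phosphate pathway had 4 genes higher and 2 lower, TALDO1 with the largest log2 fold change of 0.14 (SE 0.18, adjusted p = 0.993, limma).

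Among 8 HIF pathway genes, HIF1A included, 2 were higher and 6 lower. EPAS1, the HIF2 alpha subunit, had a log2 fold change of 0.36 (SE 0.18, adjusted p = 0.993, limma) with overlapping labels. HIF1AN, the asparagine hydroxylase that restrains HIF, was at 9.66 to 13.2 FPKM with the WT label and 8.59 to 9.35 FPKM with the leptin label, with no overlap and a log2 fold change of -0.29 (SE 0.16, adjusted p = 0.993, limma).

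Of 11 hypoxia-induced genes outside glycolysis, 9 were higher and 2 lower by label, and 0 were called at either p in limma. ADM, the vasodilator adrenomedullin, was at 0.136 to 1.31 FPKM with the WT label and 1.41 to 2.09 FPKM with the leptin label (no overlap, log2 fold change 0.57, SE 0.27, adjusted p = 0.993, limma). KDM3A, a histone demethylase, did not overlap either, with a log2 fold change of -0.090 (SE 0.13, adjusted p = 0.993, limma). BNIP3, BNIP3L, NDRG1, P4HA1 and MXI1 had WT replicate 1 and leptin replicate 2 as their 2 highest libraries, as did LDHA and PGK1 and the enzymes GAPDH and PKM, although for PGK1 WT replicate 1 (283 FPKM) was barely above WT replicate 2 (282 FPKM). That is 5 of 11 hypoxia-induced genes and 4 of 20 enzymes, beside 3 of 6 pentose phosphate genes, 3 of 12 lactate and pyruvate genes and 0 of the transporters, regulators and HIF pathway genes, where 6.07% of all genes tested have this pair on top, and the pattern was picked after the values were seen. NDRG1 was at 69.8 and 69.7 FPKM in these 2 libraries and at 49.2 to 56.5 FPKM in the other 4. The same pair was on top for 5 of 5 tested neutrophil marker rows and 3 of 8 monocyte rows. Summed monocyte marker FPKM was 921, 484 and 417 in WT replicates 1, 2 and 3 and 564, 933 and 669 in leptin replicates 1, 2 and 3. No row of these 2 marker lists was at 0 in any library, and the neutrophil elastase gene ELANE was at 0.275 to 1.05 FPKM. The part of these markers in the LDHA and PGK1 values was not tested.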

How the data were processed

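Libraries were grouped by their labels, and a code in the column names tied each column to 1 library. The authors aligned paired-end reads with Bowtie to the Ensembl transcriptome and quantified them with RSEM according to the study's methods, while the submitters' processing notes name STAR 2.5, Cuffnorm and DESeq 1.22.1. They deposited FPKM values, 1 per gene and library. The deposited log2 fold change and p-value columns hold the authors' own comparison and were not used. Differences were fitted with limma 3.58.1 in R 4.3.3 (trend and robust off) on log2(FPKM + 1) over genes that reached an FPKM of 1 in 3 or more libraries, with two-sided p-values adjusted by Benjamini-Hochberg. Intervals are at 95%. Exact permutation tests used SciPy 1.17.1 under Python 3.11.15. Genes without a symbol numbered 4000, of which 1504 were named from a reference table of gene identifiers, and the 8 genes themselves were matched only by the table's own symbols. Named beside these 8 are, per pathway list, the largest difference and the genes whose labels do not overlap, and the 3 nearest genes by pattern. One gene that this rule names is not reported here. The members and lists were chosen with earlier results of these data known. In a simulation where 200 of 10735 genes differed by 2 on the log2 scale, the fit recovered 180 with 14 false calls. The changed genes were drawn only from levels above that of HK2, with independent normal noise. Their difference was far larger than any estimate for the 8 genes, so the simulation gives no power for these. FPKM holds no counts, so no counting interval is given. Alternatives were the pseudocount, the filter, scaling, moderation, variance trend, a replicate block and each library left out. Reads shared with processed copies of glycolytic genes were not examined. Promoter and protein sequences were not used here.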

Additional observations from a re-analysis of the deposited data

How the results depend on the processing

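Each of the 8 genes was refitted under 14 alternatives, of which leaving out both libraries numbered 1 was chosen after seeing the data. The counts of genes at an adjusted or an unadjusted p under 0.05 stayed at 0 of 8 in all 14, with a smallest unadjusted p of 0.220 and log2 fold changes from -0.25 to 0.30. At the unadjusted threshold the background was 3.18% in the main fit and 2.32% without both libraries numbered 1 (limma). Of the other alternatives, only the replicate block has its background count given, below. At so low a background 0 of 8 is a common outcome, so its constancy does not set these genes apart. By construction 5 of the 14 (both filters, no moderation, the variance trend and the block) leave the estimates as they are, so only 72 values could turn, and 21 of these did. The cause was not tested. With median-of-ratios scaling, which moved the median of all genes by -0.057, ENO1 was at -0.038, HK1 at -0.036 and PGK1 at -9.51e-04. With both libraries numbered 1 left out, ENO1 was at -0.087, HK1 at -0.080, HK3 at 0.17 and LDHA at 0.24. With one replicate left out, log2 fold changes ranged from -0.046 to 0.12 for ENO1, -0.072 to 0.12 for HK1, -0.055 to 0.30 for HK2, -0.25 to 0.15 for HK3, -0.21 to 0.22 for LDHA, -0.17 to 0.20 for PGK1, -0.12 to 0.11 for HIF1A and 0.039 to 0.25 for PFKL. Genes whose labels do not overlap ranged from 0 to 1 (PFKL, without WT replicate 3). With a library left out labels separate more easily, and the share over all genes was not computed for that fit. Nothing about PFKL is read from this count. The difference in HK3 share ranged from -1.06 to 0.48 percentage points, with the sign turned without WT replicate 1, WT replicate 2 or leptin replicate 1. The SLC2A3 share and the promoter search could not be run.

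Same-numbered libraries are not known to be related, and their deviations from the label means correlated at -0.28 to 0.13, with 1 of 6 libraries closest to its own number. Fitting the replicate number as a block raised the genes with an unadjusted p under 0.05 from 341 to 384 and those with an adjusted p under 0.05 from 1 to 2, and the unadjusted p of PFKL went from 0.367 to 0.437 (limma). No depth is known, and 3 libraries per label limit what can be seen.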
